A study of Mus musculus and Rattus norvegicus with 43 samples.

Results

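The striatum of 8 mice given a control miRNA was described on its own, as the baseline of a study of Taf1 knock-down in rodents. These 8 libraries are all those of the mouse count table whose injection label names the control miRNA, out of 43 samples in the whole series. Every control mouse was of strain C57BL/6, was injected on postnatal day 0 and was 4 months old when the striatum of a single hemisphere was taken. The other mice used here, 8 labelled N-TAF miRNA (N mice) and 5 labelled C/N-TAF miRNA (CN mice), share this strain, injection day and age. The controls are therefore injected animals carrying a miRNA, not untreated ones. The labels give neither the sex of the animals nor the vector or promoter of the miRNA. By the labels, each animal gave 1 library.

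The striatum is the input station of the basal ganglia. Most of its neurons are GABAergic spiny projection neurons, divided into a direct pathway marked by the D1 dopamine receptor and an indirect pathway marked by the D2 dopamine receptor, an adenosine receptor and enkephalin. Cholinergic and GABAergic interneurons, astrocytes, oligodendrocytes, microglia and vessels make up the rest. Cortex lies above the striatum, and the lateral ventricle with its choroid plexus lies beside it, so a dissected piece can carry RNA of these neighbours.

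Library totals ranged from 24.9 to 33.0 M (mega) counts with a mean of 29.5 ± 3.27 M (SD, n = 8), and 26343 to 27547 genes had at least 1 read. The 10 most abundant genes took 4.96 to 6.17% of the counts. CPM, the unit of all levels here, is a gene's count over the TMM-adjusted size of its library, times 1 M. The TMM factors lay between 0.978 and 1.01. Control mouse 6 differed from the others in how its levels depended on transcript length. Across 11912 genes of at least 5 CPM with a known length, the Spearman correlation between length and deviation from the mean of the 8 animals was -0.40 in that library, against -0.060 to 0.185 in the other 7. The next lowest values were -0.060 and -0.031 in control mice 7 and 5, while control mice 1, 2, 3, 4 and 8 lay between 0.012 and 0.185.

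Striatal markers were abundant in every animal. Penk, which encodes the enkephalin precursor, ranged from 1472 to 1757 CPM with a median of 1635. At 998 CPM per kilobase of exon it was the highest nuclear gene with a usual symbol per length, followed by the calmodulin gene Calm2 (989), the cystatin gene Cst3 (879), Eef1a1 (872) and the carboxypeptidase gene Cpe (719). Ppp1r1b, the DARPP-32 phosphatase inhibitor of spiny neurons, ranged from 1914 to 2123 CPM (median 2059), and its level per length was 692 CPM per kilobase. Drd1, the D1 receptor gene, ranged from 289 to 328 CPM (median 312), and Drd2, the D2 receptor gene, from 256 to 285 CPM (median 279). Adora2a, the adenosine receptor gene of the indirect pathway, ranged from 396 to 518 CPM (median 452). Control mouse 5 was the lowest for Drd1, Drd2 and Adora2a, control mouse 7 for Penk and control mouse 1 for Ppp1r1b. All 5 markers were thus present in all 8 libraries, with the highest animal at most 1.31 times the lowest (Adora2a). Fewer cells of a type and less RNA per cell cannot be told apart in these bulk samples.

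The spread of each gene between animals was measured in 2 ways. The SD of log2 CPM (prior count 2) is the observed spread, and it was set beside the SD that counting alone would give at that depth. The biological coefficient of variation (BCV) is the square root of edgeR's gene-wise dispersion, which takes counting noise out, and it was divided by its trend at the same abundance. A ratio of 1.5 or more is called high below and a ratio of 1/1.5 or less is called low. These cut-offs describe the genes and are no test, because gene-wise estimates from 8 animals are imprecise and such a ratio can arise from estimation error in a single gene. In simulated counts, 9.55% of 16390 genes given the same BCV reached a ratio of 1.5. A high ratio alone therefore does not set a single gene apart. Where the text says that a class varied strongly or little, it refers to these values.

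Between the 8 animals most genes differed little. The median SD of log2 CPM was 0.127 over the 16590 genes that passed the low-count filter, and 0.099 over the 11918 of them at 5 CPM or more. For that better-measured set the median ratio of the highest to the lowest animal was 1.22, and in 181 genes (1.52%) the highest animal had at least 2 times the lowest. In 9 genes the highest animal had at least 10 times the lowest. These were Xist, Ttr, Rn7sk, Plin4, F5, Tbr1, Oasl2, Nr4a2 and Hbb-bs. Over all genes that passed, 1158 (6.98%) had a high ratio and 7347 (44.3%) a low one, and the median BCV was 0.0696. These 2 shares are the background for the counts by class below. The median ratio was 0.721, so a low ratio lies close to that of a typical gene. The trend was 0.100 for Penk and 0.0658 for Mcfd2, at means of 1630 and 71.1 CPM. An abundant gene can thus have a low ratio at a larger BCV. At 50 CPM or more the median SD of log2 CPM was 0.0756 over 4608 genes, against 0.0265 from counting alone.

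**Figure D1:**
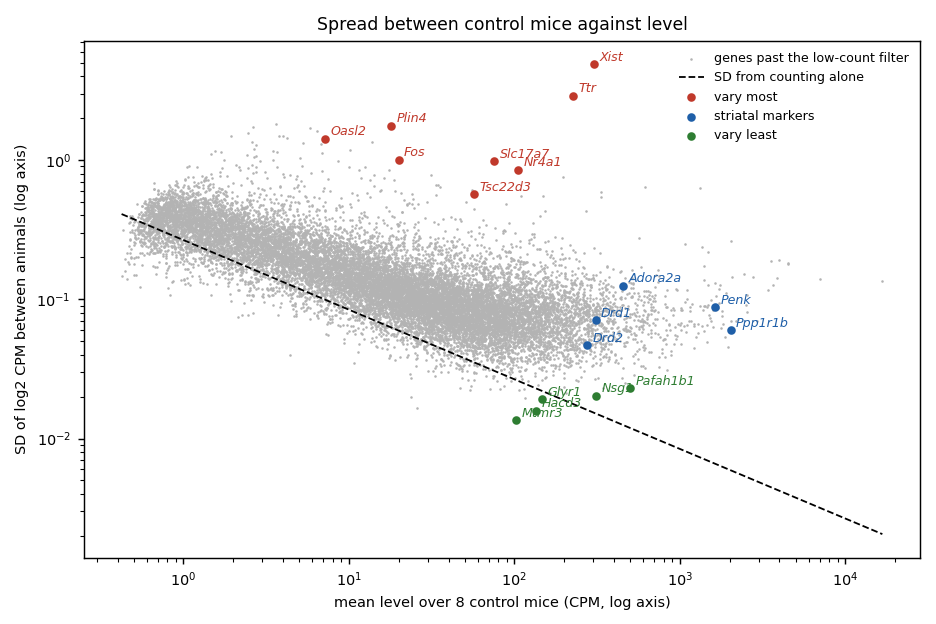
SD of log2 CPM between the 8 control mice against mean CPM, both on log axes, with 1 grey point for each of 16590 genes that passed the low-count filter and a dashed line for the SD from counting alone. Xist and Ttr stand highest, the 5 striatal markers lie within or below the cloud at their level, and Mtmr3, Hacd3 and Glyr1 lie below the counting line.

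The genes that varied least at 50 CPM or more stayed within a few percent of their median in every animal. Mtmr3, a phosphoinositide phosphatase, ranged from 102 to 105 CPM (median 102), with an SD of log2 CPM of 0.0135 against 0.0263 from counting. Hacd3, an enzyme of very long chain fatty acid elongation, ranged from 132 to 137 CPM (median 135), with an SD of 0.0158. Glyr1 ranged from 144 to 150 CPM, Pnpla8, a phospholipase, from 114.5 to 118.8, and Nsg1, a neuronal endosomal protein, from 307 to 319. No animal stood apart for any of these 5 genes. Fez1, Ppp6r1, Phb and Mcfd2 were also among the 10 of lowest spread at 50 CPM or more, and 37 of the 4608 genes had an SD at or below that from counting. The lowest of many estimates fall below the counting level partly because they were picked as the lowest, so their order has no weight. Pafah1b1, a regulator of dynein, was the most abundant of the 20 genes of lowest spread, at 487 to 512 CPM.

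Of 13 genes usually taken as references, 7 had a low ratio and 2 a high one, beside 44.3% low and 6.98% high among all genes. These shares do not set the references apart from other genes. Gapdh ranged from 1341 to 1532 CPM (median 1386, SD of log2 CPM 0.0596), Actb from 1030 to 1192 and Pgk1 from 252 to 278. Of those with a high ratio, B2m, the MHC class I light chain, was at 33.0 to 63.3 CPM (SD of log2 CPM 0.376). B2m was highest in control mice 3, 7 and 2, the animals rich in interferon-response RNA described below.

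The genes of striatal neurons and their synapses had low and high ratios side by side. Of the 20 genes common to both spiny pathways, 11 had a low ratio and 2 a high one, beside 44.3% low and 6.98% high among all genes, and the median SD of log2 CPM was 0.0906. Of 8 direct-pathway genes 2 had a low ratio and 1 a high one, and of 6 indirect-pathway genes 3 had a low ratio and 0 a high one. The summed level of the 20 genes common to both pathways was 19618 ± 953 CPM (SD, n = 8), between 17890 in control mouse 5 and 21000 in control mouse 3. Scn4b, a sodium channel subunit gene, ranged from 1608 to 2074 CPM, with control mouse 5 lowest. The high ratios belonged to Pcp4, a calmodulin-binding protein gene, and Rarb, a retinoic acid receptor gene. Pcp4 ranged from 68.6 to 127 CPM (median 84.4), and control mice 1, 6 and 7 were the highest.

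The 16 genes of GABA synthesis and receptors had the smallest median SD of the classes, 0.072, with 10 low ratios and 0 high ones. Among all genes 44.3% were low and 6.98% high. Their sum was 4242 ± 73.2 CPM. Gad1 and Gad2, which encode the GABA-synthesising enzymes, ranged from 609 to 752 and from 545 to 636 CPM. Of 9 cholinergic interneuron genes that passed, 5 had a low ratio and 0 a high one, and the sum over all 10 listed was 250 ± 8.02 CPM. Chat, choline acetyltransferase, ranged from 25.6 to 32.1 CPM (median 29.7), lowest in control mouse 8. Presynaptic release genes had 11 low and 2 high ratios among 16. Glutamate receptor genes had 6 low ratios among 16, a share below that of all genes, and 1 high one. The high exceptions among release genes were Slc17a7, taken up below with the cortical genes, and Stx1a, a syntaxin gene, at 26.7 to 47.6 CPM.

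GABAergic interneuron markers other than those of cholinergic cells varied more, with 5 high ratios and 0 low ones among 11. Among all genes the shares were 6.98% high and 44.3% low. Sst, the somatostatin gene, was the steadiest of those named, at 129.2 to 161.2 CPM. Pvalb, the parvalbumin gene, ranged from 11.6 to 37.2 CPM (median 20.2), with control mouse 7 highest and control mouse 1 lowest. Cck, the cholecystokinin gene, ranged from 10.5 to 38.1 CPM (median 15.2). It was highest in control mice 6, 5 and 8, which also led for cortical genes. Npy, the neuropeptide Y gene, ranged from 21.9 to 35.7 CPM.

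Glial classes lay between these extremes. Among all genes 6.98% had a high ratio and 44.3% a low one. Oligodendrocyte genes had a summed level of 9909 ± 1179 CPM (range 8493 to 11523), with 4 of 12 ratios high and 0 low. Mbp, which encodes a main myelin protein, ranged from 3334 to 4647 CPM. Control mice 5 and 7 had the largest sums and control mouse 1 the smallest. Astrocyte genes summed to 6631 ± 386 CPM, with 4 of 13 ratios high. Glul, glutamine synthetase, ranged from 1018 to 1689 CPM (median 1290), and control mice 5, 6 and 7 lay above the other 5. Slc1a2, the main astrocytic glutamate transporter gene, ranged from 2757 to 3191 CPM, with a ratio of 0.483. Microglial genes summed to 622 ± 33.6 CPM, with 2 of 15 ratios high.

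Endothelial genes were at a summed 453 ± 23.2 CPM, but single members differed more than the sum. Of 13, 6 had a high ratio, beside 6.98% of all genes. Cldn5, the tight junction claudin, ranged from 15.3 in control mouse 7 to 35.3 CPM in control mouse 3 (median 27.3). Slc2a1, the glucose transporter gene of the blood-brain barrier, ranged from 73.3 to 117 CPM (median 88.2) and was highest in control mice 5, 6 and 7. Control mouse 7 was thus lowest for Cldn5 and highest for Slc2a1. The summed mural cell genes were lowest in that animal too, at 196 CPM, against 215 to 229 CPM in the others.

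Xist, the RNA that coats the inactive X chromosome, varied most of all genes (ratio 26.4). It stood at 1168 CPM in control mouse 6 and at 1249 CPM in control mouse 7. In the other 6 animals it ranged from 0.513 to 1.15 CPM. Genes of the Y chromosome showed the mirror image. Ddx3y, an RNA helicase gene, was at 67.2 to 77.9 CPM in those 6, at 0.0411 CPM in control mouse 6 and at 0 in control mouse 7. Uty, a histone demethylase homologue, was at 19.8 to 23.4 CPM in the 6 and at 0 in both of these animals. At 3 counts, the upper limit that a count of 0 allows is 0.0905 to 0.123 CPM in these libraries, for counting error alone. Of genes known to escape X inactivation, Eif2s3x was at 79.5 and 86.3 CPM in control mice 7 and 6, against 50.6 to 57.1 CPM in the other 6. Kdm6a was at 56.6 and 59.8 CPM in control mice 6 and 7 and at 39.5 to 44.5 CPM in the others. Eif2s3y, the Y-linked partner of Eif2s3x, was uneven among the 6 animals that carried it. It was at 18.5 CPM in control mouse 4 and at 33.7 CPM in control mouse 5, against 46.9 to 62.8 CPM in control mice 1, 2, 3 and 8. The Y-linked genes did not pass the low-count filter, which asked for reads in all 8 libraries. Xist was likewise high in a single N mouse (N mouse 3, 1086 CPM) and at 1.19 CPM or less in the other 7, while the highest of the CN mice had 0.552 CPM.

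Genes of the choroid plexus formed the widest class among those with at least 3 members past the filter, with a median SD of log2 CPM of 1.49 over the 9 of 14 members that passed the filter. All 9 had a high ratio. Ttr, which encodes transthyretin and is the main transcript of this epithelium, was at 348, 901 and 491 CPM in control mice 3, 5 and 8. It ranged from 4.22 to 26.9 CPM in the other 5. The groups of values did not overlap, and control mouse 5 exceeded control mouse 2 by 213 times. Kl, the klotho gene, was at 18.7, 39.8 and 28.8 CPM in the same 3 animals and at 4.19 to 5.51 CPM elsewhere. F5, coagulation factor V, was at 8.66, 16.7 and 14.1 CPM in these animals and at 0.724 to 1.99 CPM elsewhere. For 8 of the 9 members (Ttr, Folr1, Kl, Clic6, Otx2, F5, Tmem72 and Prlr), control mice 3, 5 and 8 held the 3 highest values, which was so for 1.70% of all genes that passed. The members that did not pass were near 0 outside these animals, so a count over those that passed leaves out the sharpest contrasts. Enpp2, an autotaxin gene expressed by choroid plexus and oligodendrocytes, was at 422, 616 and 469 CPM in them and at 220 to 266 CPM elsewhere. Cilia genes of the ependyma, the lining of the ventricle, differed far less between the animals. Their sum was 69.68, 66.88 and 65.13 CPM in control mice 3, 5 and 8 and 56.31 to 65.08 CPM elsewhere. Foxj1, a regulator of ciliated cells, ranged from 14.9 to 18.2 CPM (median 17.4). Of 10 ependymal genes 0 had a high ratio, beside 6.98% of all genes, so the count is near that share. Their median SD of log2 CPM was 0.241 at a median level of 5.44 CPM, against 0.127 over all genes that passed.

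**Figure D2:**
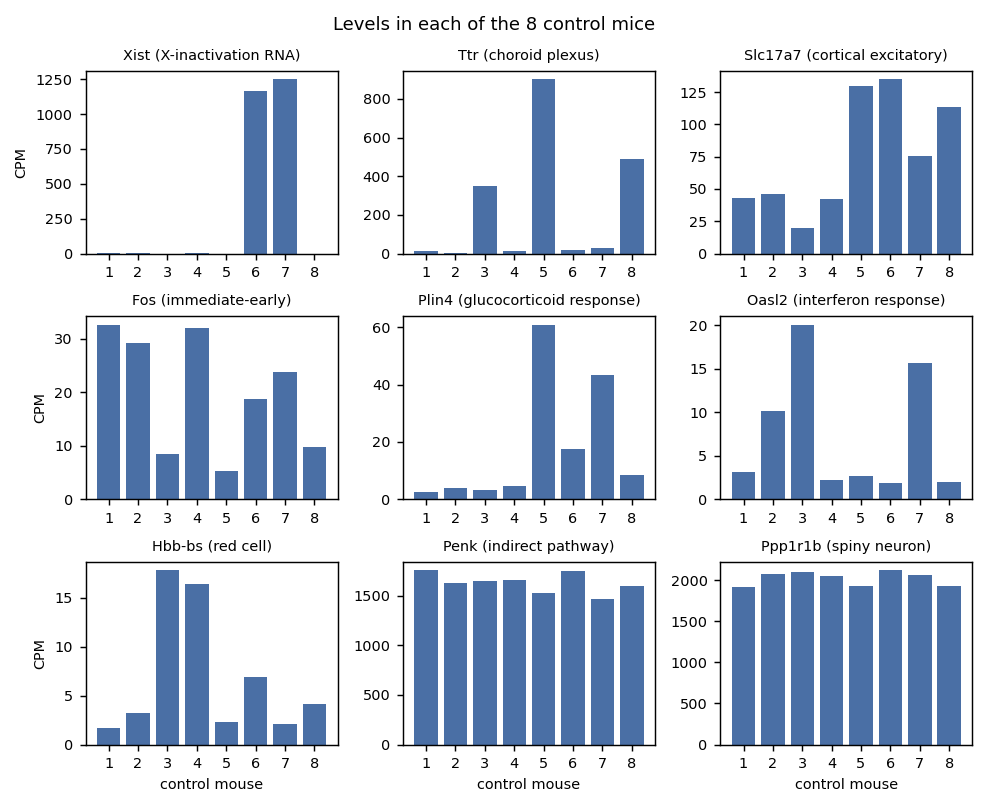
CPM of 9 genes in each of the 8 control mice (bars, linear axes from 0, 1 library per bar). Xist is high in animals 6 and 7, Ttr in 3, 5 and 8, Slc17a7 in 5, 6 and 8, Fos in 1, 2 and 4, Plin4 in 5 and 7, Oasl2 in 2, 3 and 7, and Hbb-bs in 3 and 4, while Penk and Ppp1r1b are level.

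Cortical excitatory genes varied between another set of animals. Slc17a7, the vesicular glutamate transporter of cortical projection neurons, ranged from 19.6 to 135 CPM (median 60.7, ratio 9.48). It was at 130, 135 and 113 CPM in control mice 5, 6 and 8 and at 75.5 CPM in control mouse 7. Control mice 1, 2 and 4 had 42.2 to 46.0 CPM, and control mouse 3 had the lowest value. Tbr1, a transcription factor gene of deep cortical layers, ranged from 1.62 to 18.6 CPM (median 9.27), and Neurod2 from 2.15 to 9.99. The same animals 5, 6 and 8 held the 3 highest values for 5 of 11 members that passed, among them Slc17a7, Neurod2, Neurod6 and Tbr1, and for 3.45% of all genes. Nr4a2, a nuclear receptor gene also used as a marker of deep cortical cells, ranged from 1.36 CPM in control mouse 3 to 14.9 CPM in control mouse 6. Other members of the list did not follow, and Lamp5 stayed between 77.0 and 91.5 CPM. The list as a whole had 7 high ratios of 11, beside 6.98% of all genes. Slc17a6, the vesicular glutamate transporter of thalamus and other subcortical regions, was at 7.74 and 6.67 CPM in control mice 3 and 7, against 0.663 to 1.99 CPM in the other 6. The part of neighbouring tissue in these levels was not tested.

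Immediate-early genes, whose transcription follows neuronal firing within minutes, varied as a block. Of 16 members, 15 had a high ratio, and the summed level ranged from 674 CPM in control mouse 5 to 1759 CPM in control mouse 2 (median 1050). Fos ranged from 5.31 to 32.7 CPM (median 21.2). It was at 32.7, 29.2 and 32.1 CPM in control mice 1, 2 and 4, at 18.7 and 23.8 CPM in control mice 6 and 7, and at 8.36, 5.31 and 9.72 CPM in control mice 3, 5 and 8. Arc, a synaptic capsid-like protein gene, followed the same order with 287, 335 and 288 CPM in control mice 1, 2 and 4 and 76.4 to 121.2 CPM in control mice 3, 5 and 8. Nr4a1, an orphan nuclear receptor gene, ranged from 40.2 CPM in control mouse 5 to 207 CPM in control mouse 2, and Fosl2 from 16.1 in control mouse 3 to 71.7 CPM in control mouse 2. For 13 of the 16 members control mice 1, 2 and 4 held the 3 highest values, as for 2.85% of all genes. Egr3 varied least of those named, from 161 to 234 CPM. Npas4, which responds to calcium entry in neurons, was at 13.3 and 16.5 CPM in control mice 5 and 8 alone and at 36.9 to 45.3 CPM in the other 6, so control mouse 3 was low for Fos and not for Npas4. The 3 animals of lowest Fos were the 3 of highest Ttr, and whether choroid plexus content had a part in the Fos values was not tested.

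The promoters of 2 immediate-early genes are printed because they hold the exact palindrome of the cyclic AMP response element (CRE, TGACGTCA), shown in capitals. Both are RefSeq windows of 300 bases, from 250 before to 50 after the start, on GRCm38.p6. Dusp1 lies at chr17:26508423-26508722 and Btg2 at chr1:134079106-134079405, both on the minus strand.

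Dusp1: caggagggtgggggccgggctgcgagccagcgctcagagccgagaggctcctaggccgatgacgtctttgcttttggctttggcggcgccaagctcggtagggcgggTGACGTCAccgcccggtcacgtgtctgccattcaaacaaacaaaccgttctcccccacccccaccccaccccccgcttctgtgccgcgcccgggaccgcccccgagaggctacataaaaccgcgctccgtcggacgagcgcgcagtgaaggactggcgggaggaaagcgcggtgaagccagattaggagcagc
Btg2: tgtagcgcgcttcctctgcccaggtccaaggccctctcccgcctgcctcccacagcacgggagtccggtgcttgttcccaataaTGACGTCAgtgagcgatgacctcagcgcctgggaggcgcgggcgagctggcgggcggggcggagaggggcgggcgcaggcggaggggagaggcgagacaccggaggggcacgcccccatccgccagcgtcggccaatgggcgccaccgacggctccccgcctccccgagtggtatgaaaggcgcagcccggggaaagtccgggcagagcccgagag

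Dusp1, a phosphatase gene that acts on MAP kinases, ranged from 18.1 to 46.5 CPM (median 34.3). Btg2, an antiproliferative gene, ranged from 6.91 to 21.6 CPM (median 14.1). Both were highest in control mice 1, 2 and 4 and lowest in control mice 3, 5 and 8. A match to the element was present in these 2 of the 12 immediate-early genes with a promoter sequence, and in 2.03% of all 27025 genes (either strand of any of their promoters). Fos and Nr4a1 had none in this window, and a CArG box, the core of the serum response element (CC, 6 bases of A or T, GG), was in 1 of the 12 (Egr2) and in 1.81% of all genes. A match is a description of the letters only.

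Genes that respond to glucocorticoids were highest in the animals whose library names carry the numbers 26, 27 and 28, which are control mice 5, 6 and 7. The names of the other 5 carry numbers from 2 to 7, and the labels do not say what these numbers mean. Control mice 5, 6 and 7 also had the 3 lowest correlations of level with transcript length, at -0.031, -0.40 and -0.060. The part of that dependence in the levels below was not tested. Plin4, a lipid droplet protein gene, was at 60.9, 17.6 and 43.3 CPM in control mice 5, 6 and 7, against 2.33 to 8.43 CPM in the other 5. Its median was 6.49 CPM and its ratio 11.8. Tsc22d3, which encodes the glucocorticoid-induced leucine zipper protein, was at 86.3, 77.6 and 88.3 CPM in these animals and at 32.9 to 51.3 CPM in the others. Zbtb16, a zinc finger transcription factor gene, was at 24.8, 15.9 and 29.6 CPM against 7.70 to 10.2 CPM. Sgk1, a kinase gene, was at 216, 170 and 249 CPM against 89.7 to 139 CPM. The metallothionein gene Mt1 and Fkbp5, a co-chaperone of the receptor, also did not overlap between these animals and the others. Thus 6 of the 9 members that passed were higher in all 3 animals than in the other 5, as were 4.91% of all genes. Another 4.35% of all genes were lower in all 3, among them 1 member. Nr3c1, the receptor gene itself, ranged from 100.2 to 118 CPM with a ratio of 0.718. The palindrome of the glucocorticoid response element (ACANNNTGT) was in 2 of 8 members with a promoter sequence (Sgk1 and Mt1) and in 7.90% of all genes. The astrocytic enzyme genes Etnppl (15.04 to 66.6 CPM, ratio 6.13) and Glul were highest in the same 3 animals. These animals include both that carried Xist, while control mouse 5 had 0.513 CPM of it, so number and Xist do not coincide. Among the N mice, Plin4 was highest in N mouse 3 at 41.5 CPM, the N mouse of high Xist, and lay between 3.88 and 10.8 CPM in the other 7.

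Clock genes varied less than glucocorticoid-response genes, with a median SD of log2 CPM of 0.117 against 0.351. Of 17 members, 7 had a high ratio, a share above the 6.98% of all genes, and the summed level of the class was 2158 ± 106 CPM. Dbp, a clock output gene, ranged from 148 to 184 CPM (median 161), and Per2, a core repressor, from 36.4 to 69.9 CPM (median 53.2). Control mice 5, 6 and 7 were above the others for 5 members and below them for 4, beside 4.91% and 4.35% of all genes. The E-box CACGTG, which clock activators bind, was in 5 of 15 members with a promoter sequence (Per1, Cry1, Tef, Bhlhe41 and Ciart) and in 8.09% of all genes.

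Interferon-response genes varied together. All 11 had a high ratio, and for all 11 the 3 highest values were in control mice 2, 3 and 7, as for 1.86% of all genes. Oasl2, of the antiviral oligoadenylate synthetase family, was at 10.2, 20.1 and 15.7 CPM in these animals and at 1.81 to 3.12 CPM in the other 5. The promoters of 3 members are printed because they hold the core of the interferon-stimulated response element (ISRE, GAAANNGAAA or its reverse complement), shown in capitals. Where matches overlap, the capitals run on. They are the same RefSeq windows on GRCm38.p6, with Ifit1 at chr19:34640639-34640938 and Ifit3 at chr19:34583279-34583578 on the plus strand, and Isg15 at chr4:156200769-156201068 on the minus strand.

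Ifit1: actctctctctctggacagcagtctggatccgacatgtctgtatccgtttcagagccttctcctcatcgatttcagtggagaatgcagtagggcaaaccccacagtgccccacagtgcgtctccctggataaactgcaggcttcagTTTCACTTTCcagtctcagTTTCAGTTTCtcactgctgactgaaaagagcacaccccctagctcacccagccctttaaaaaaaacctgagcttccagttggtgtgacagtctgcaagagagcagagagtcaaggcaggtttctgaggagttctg
Ifit3: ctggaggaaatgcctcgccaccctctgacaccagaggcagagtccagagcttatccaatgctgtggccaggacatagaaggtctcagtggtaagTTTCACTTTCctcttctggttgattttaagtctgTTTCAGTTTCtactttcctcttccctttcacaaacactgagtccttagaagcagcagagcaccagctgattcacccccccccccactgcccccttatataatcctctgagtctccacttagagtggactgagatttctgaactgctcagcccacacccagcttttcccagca
Isg15: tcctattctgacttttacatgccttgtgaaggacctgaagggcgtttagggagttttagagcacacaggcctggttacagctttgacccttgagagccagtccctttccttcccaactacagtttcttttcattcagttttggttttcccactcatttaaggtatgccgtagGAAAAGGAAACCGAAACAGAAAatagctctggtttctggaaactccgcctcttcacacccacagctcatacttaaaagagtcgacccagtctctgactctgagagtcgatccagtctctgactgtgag

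Ifit1, an antiviral RNA-binding protein gene, was at 7.15, 13.7 and 11.8 CPM in control mice 2, 3 and 7 and at 1.41 to 2.29 CPM elsewhere. Ifit3, its partner in the same gene cluster, was at 17.1, 26.8 and 20.2 CPM against 5.48 to 10.5 CPM. Isg15, a ubiquitin-like modifier gene, was at 3.41, 8.26 and 4.05 CPM against 0.987 to 2.17 CPM. The 3 animals lay above the 5 others for each of these genes without overlap. A match to the element was present in 6 of the 8 interferon-response genes with a promoter sequence (Ifit1, Ifit3, Isg15, Ifitm3, Bst2 and Gbp2) and in 3.99% of all genes. Ifit1 and Ifit3 held 2 matches each and Isg15 held 3, which overlap.

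MHC class I genes, which present peptides on the cell surface and are raised by interferon, had their high values in the same animals. For 5 of 6 members that passed (B2m, H2-K1, H2-D1, Tap1 and Psmb8), control mice 2, 3 and 7 held the 3 highest values. H2-D1, a heavy chain gene, was at 43.0, 52.3 and 50.8 CPM in them and at 27.5 to 32.7 CPM in the others. B2m was at 56.0, 63.3 and 62.8 CPM against 33.0 to 47.6 CPM. The heavy chain genes are near-identical paralogues, so their single counts are uncertain. Microglial genes were at a summed 605, 639 and 659 CPM in control mice 2, 3 and 7, while control mouse 6 had the highest sum at 679 CPM, so the microglial sum did not separate these animals.

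Transcripts of blood and of other tissues were low. Hbb-bs, a beta globin gene of red cells, was at 17.8 and 16.4 CPM in control mice 3 and 4 and at 1.66 to 6.91 CPM in the other 6 (median of all 8, 3.71). Hba-a1, an alpha globin gene with a near-identical copy, was at 11.7 and 10.6 CPM in the same 2 animals and at 0.750 to 4.03 CPM elsewhere. Neutrophil genes summed to 0.648 to 4.32 CPM and pituitary and hypothalamic hormone genes to 5.43 to 7.69 CPM, so defining markers of these sources were close to 0. Ambn, an enamel matrix gene, was at 2.01 to 5.12 CPM in control mice 1, 2, 3, 6 and 8 and at 0 in control mice 4, 5 and 7. Its split matched none of the splits above. Amelx, another enamel gene, was at 0.271 to 0.595 CPM in the same 5 animals and at 0.0349 CPM or less in the other 3.

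Single libraries stood apart for a few genes. Rn7sk, the small nuclear RNA that holds back the elongation factor P-TEFb, was at 37.9 CPM in control mouse 4 and at 1.05 to 2.96 CPM in the others. Lars2, a mitochondrial leucyl-tRNA synthetase gene, was at 717 CPM in that animal and at 215 to 381 CPM in the others. The 2 genes were also high together in N mice 1, 2, 5 and 6, with Rn7sk at 10.6 to 19.2 CPM and Lars2 at 406 to 625 CPM. In N mice 3, 4, 7 and 8 Rn7sk was at 0.952 to 3.64 CPM and Lars2 at 180 to 293 CPM, so the pairing is not particular to control mouse 4. The stress-induced chaperone genes Hspa1a and Hspa1b, which are near-identical copies, were at 6.18 and 8.53 CPM in control mouse 2 and at 4.41 CPM or less elsewhere. Calr, the endoplasmic reticulum chaperone calreticulin, was at 345 CPM in control mouse 5 and at 249 to 280 CPM in the others. Rps29, a ribosomal protein gene with a short transcript, was at 104.6 and 81.97 CPM in control mice 6 and 7 and at 32.8 to 61.0 CPM in the others. Control mouse 6 also had the highest summed cytosolic ribosome, proteasome and nuclear respiratory chain genes, and it is the library with the strongest dependence on transcript length. The part of that dependence in these sums was not tested.

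Mitochondrially encoded genes had the largest summed level of the 39 classes. All genes of that chromosome took 4.21 to 5.56% of the counts, with a summed level of 40031 ± 4402 CPM over the 13 protein-coding genes. mt-Co1, a cytochrome oxidase subunit gene, was the highest of all genes with a usual symbol at 15172 to 20061 CPM (median 16116), and control mouse 6 was the highest. mt-Cytb ranged from 6453 to 8605 CPM. mt-Co3 was at 183 CPM in control mouse 1 and at 65.3 to 94.7 CPM in the others. mt-Co2, mt-Co3 and mt-Atp6 have near-identical copies in the nuclear genome that could share their reads, so their levels and spread are uncertain. Of 20 nuclear respiratory chain genes 9 had a low ratio and 3 a high one, beside 44.3% low and 6.98% high among all genes, so the low share was that of genes at large. Taf1, the gene targeted in the other animals, ranged from 86.4 to 103 CPM (median 100.2) in the controls. Among 13 TFIID genes that passed, 4 had a low ratio and 0 a high one.

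**Figure D3:**
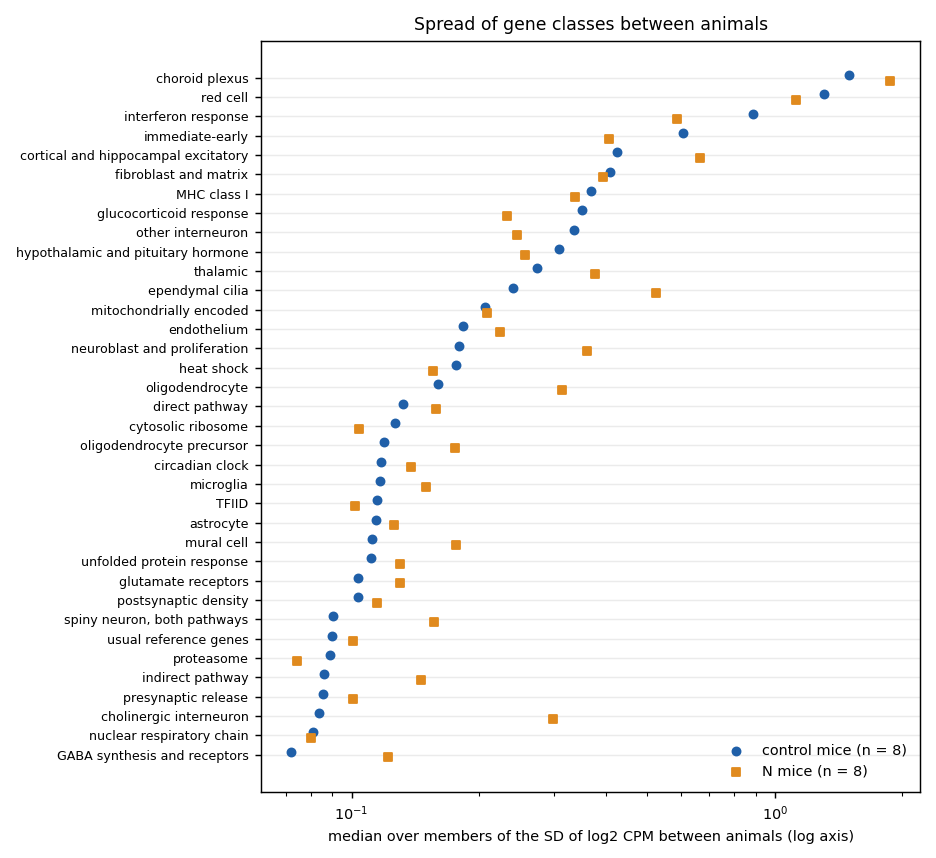
Median over the members of each gene class of the SD of log2 CPM between animals (log axis), for control mice (circles) and N mice (squares), in classes with at least 3 members past the filter in control mice. Choroid plexus, red cell and interferon genes are widest in control mice (1.49, 1.30 and 0.888) and GABA genes narrowest (0.072).

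The same measure was computed apart in the N and CN mice, which had no part in picking the genes of high ratio in control mice. Of the 1111 genes of high ratio in control mice that were also tested in N mice, 458 had a high ratio there. These were 41.2% of the control list and 36.3% of the N list, while 7.77% of all genes tested in both, and 7.89% of all genes tested in N mice, had a high ratio in N. Across genes, which are not independent replicates, the Spearman correlation of the ratio was 0.331 between control and N mice. That of the SD of log2 CPM was 0.775, and it carries the shared fall of the spread with abundance. In CN mice 302 of 1057 were high, or 28.6% of the control list and 16.9% of the CN list, against 11.3% of all genes tested in both and 11.2% of all genes tested in CN mice. CN library 2 has levels far from those of the other mice. Without it 362 of 1121 were high (32.3% of the control list and 18.4% of the CN list), against 12.1% of all genes tested in both. The median BCV was 0.0696 in control mice, 0.0857 in N mice and 0.0917 in the 4 CN mice (0.195 with CN library 2).

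**Figure D4:**
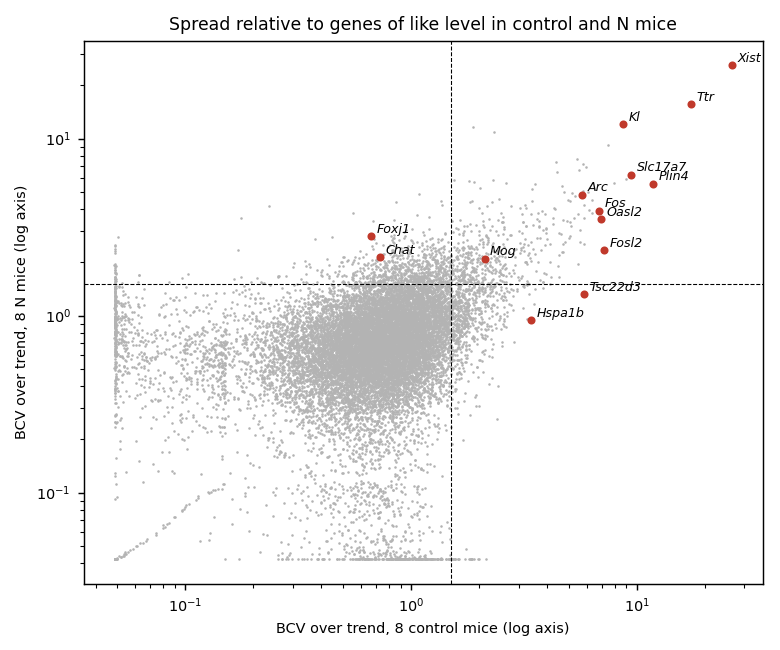
BCV divided by its trend in 8 control mice (horizontal) and in 8 N mice (vertical), both on log axes, with 1 grey point per gene, dashed lines at 1.5, and named genes in red. Points lined up near the left and bottom edges are genes at the lowest value the estimate can take. Xist, Ttr and Kl are high in both groups, Hspa1b and Tsc22d3 lie above the line in control mice alone, and Chat and Foxj1 in N mice alone.

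By class, several lists that varied most in control mice also varied in N mice, where 7.89% of all genes tested had a high ratio. The lists were chosen with earlier results of these data known, so their counts may not be independent of the N mice. Choroid plexus genes were high in 9 of 9 in control mice and in 10 of 10 in N mice, where Ttr ranged from 4.82 to 3466 CPM. Interferon-response genes were high in 11 of 11 and 9 of 10, immediate-early genes in 15 of 16 and 12 of 16, cortical genes in 7 of 11 and 8 of 12, and red cell genes in 3 of 3 and 3 of 3. Other classes had different counts in the 2 groups. Glucocorticoid-response genes were high in 6 of 9 in control mice and 4 of 10 in N mice, with a median SD of log2 CPM of 0.351 and 0.233. Heat shock genes were high in 4 of 8 in control mice and 0 of 8 in N mice, and clock genes in 7 of 17 and 2 of 17. Oligodendrocyte genes were high in 4 of 12 in control mice and 12 of 12 in N mice, ependymal genes in 0 of 10 and 10 of 10, and cholinergic genes in 0 of 9 and 5 of 9. The median SD of log2 CPM of cholinergic genes was 0.084 in control mice and 0.298 in N mice. Chat ranged from 25.6 to 32.1 CPM in control mice and from 15.04 to 29.97 CPM in N mice. The differences in spread between the groups were not tested.

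To ask whether the sources of variation moved together, 7 index genes were paired over the 8 control mice (Fos, Dbp, Ttr, Slc17a7, Hbb-bs, Cldn5 and Chat). Of the 21 pairs, 1 passed an adjusted p of 0.05 by Pearson's r and 0 by Spearman's rho (exact two-sided permutation test over all orders of the animals, Benjamini-Hochberg over all 21 pairs), while 3 had an unadjusted p below 0.05 by r and 4 by rho. The pair that passed was Fos and Ttr, with r of -0.96 (exact permutation p = 0.00112, adjusted p = 0.0234) and rho of -0.86 (exact permutation p = 0.0107, adjusted p = 0.114). Without the 2 animals farthest from the median of Fos the r was -0.91. Ttr values fell into separate clusters of 3 and 5 animals, so this r spans the gap between them, and neither cluster holds the 6 animals that a correlation within it would need. With the 6 pairs of Ttr left out, a choice made after seeing the data, 0 of the other 15 passed. With single animals left out, Fos and Ttr kept an r between -0.97 and -0.94, but no longer passed without control mouse 3, 4, 5, 6 or 7. Slc17a7 and Chat had Pearson's r of -0.80 (exact permutation p = 0.0152, adjusted p = 0.159) and Spearman's rho of -0.81 (exact permutation p = 0.0218, adjusted p = 0.114). Without the 2 animals farthest from the median of Slc17a7 the r was -0.70. Without control mouse 8, the lowest for Chat, it was -0.95 and passed. Dbp and Cldn5 had r of -0.73 (exact permutation p = 0.0380, adjusted p = 0.266) and rho of -0.83 (exact permutation p = 0.0154, adjusted p = 0.114). Without the 2 animals farthest from the median of Dbp the r was -0.35, so that relation rests on those animals. Dbp and Slc17a7 had r of 0.62 (exact permutation p = 0.110, adjusted p = 0.576) and rho of 0.81 (exact permutation p = 0.0218, adjusted p = 0.114), and r was 0.53 without the 2 animals farthest from the median of Dbp. Within the animals numbered 26 to 28 and within the other 5 there are too few animals for a correlation.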

How the data were processed

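RNA of mouse striatum was sequenced on an Illumina instrument, and the authors deposited raw counts per Ensembl gene, 1 column per animal. The submitters' processing notes name STAR, featureCounts and edgeR without versions, and list GRCh38, a human build, for mouse libraries. The build of the counts is therefore unsettled, and the only coordinates printed are those of RefSeq promoters on GRCm38.p6. Overlapping and antisense genes may share reads, since a strand setting is not given in the sources used here. Of 54532 rows, 54409 matched a symbol, and the rest took 0.07% of the counts. A single mouse column (1) whose label states no injection was left out. Replicates carry numbers in the order of the records, which pair no animals.

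From the counts, TMM-scaled CPM, log2 CPM (prior count 2) and gene-wise dispersion without moderation, in a fit with an intercept alone, were computed with edgeR 4.0.16 (R 4.3.3, limma 3.58.1) for the genes kept by filterByExpr, which with a single group of 8 requires reads in all 8 libraries. DESeq2 1.42.0 served for alternatives. Each group was scaled and fitted alone, so levels set across groups differ in scale by their normalization. CPM per kilobase used exon lengths of GENCODE M21. The procedure was tested on simulated counts in which most genes shared 1 BCV. Of 16390 genes given that common BCV, 9.55% reached a ratio of 1.5. Of 100 genes given 2 times the common BCV 71% reached it, and of 100 given 3 times 92%. These raised genes were drawn from genes at 5 CPM or more and the others from all levels, so the shares are not directly comparable. The common BCV was the same at every level, whereas the trend in the data changes with abundance. The median ratio of the genes given the common BCV was 0.888, against 0.721 in the data. Over genes with 20 or more counts in a pair, chi-square per degree of freedom was 6.96 for the closest control libraries, so no library was treated as a duplicate.

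The text names the marker genes, the genes of highest level, of highest and lowest spread, and up to 4 members per list by level and 4 by spread. Other members, the X-linked genes beside Xist, Enpp2 and Lars2 were chosen after their values were seen. Some genes that this rule names are not reported here. The members, the 39 gene lists and the promoter motifs were chosen with earlier results of these data known. Counts of genes by the 3 highest animals, the alternative that leaves out clustered Ttr pairs (a gap over 0.4 of the range), a filter on a mean of 1 CPM and the fit without CN library 2 were added after seeing the data.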

Additional observations from a re-analysis of the deposited data

Results flagged for a closer look

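Among the genes and the 39 summed classes that the text names, those listed here had 1 control mouse far from the other 7, by Dixon's criterion for 8 values at the 95% level. The criterion takes the gap of the highest or lowest animal to its neighbour over the whole range. Of 113 genes and 39 classes checked, 13 genes and 3 classes were flagged. Chance alone flags about 1 in 20 such groups where the genes were not picked by their spread. Many of the genes checked were named for their spread in these same animals, so that rate does not apply to them. The genes of a class are also not independent.

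Control mouse 3 stood apart for interferon-related genes, with Isg15 at 8.26 CPM, Ifitm3, a membrane protein gene that hinders viral entry, at 13.5 CPM, Gbp2, a GTPase gene induced by interferon, at 10.6 CPM and Tap1, the peptide transporter gene of antigen presentation, at 6.91 CPM. Control mouse 4 stood apart for Rn7sk at 37.9 CPM and Lars2 at 717 CPM. Control mouse 2 stood apart for the heat shock genes Hspa1a at 6.18 CPM and Hspa1b at 8.53 CPM.

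Control mouse 5 was the lowest for Drd2 at 256 CPM and the highest for Calr at 345 CPM, and its summed unfolded protein response genes, which include Calr, stood at 1111 CPM. Control mouse 6 was the highest for Gapdh at 1532 CPM, for mt-Cytb at 8605 CPM and for the summed proteasome genes at 1037 CPM. Control mouse 7 was the lowest for summed mural cell genes at 196 CPM. Control mouse 1 was the highest for mt-Co3 at 183 CPM.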

How the results depend on the processing

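With DESeq2 size factors 1169 genes had a high ratio and 7341 a low one, with library totals 1154 and 7292, with DESeq2 dispersions 1337 and 6491, and with a filter on a mean of 1 CPM 970 and 7192. Of the 1158 genes of high ratio, 934 were also high by DESeq2 dispersions. With no filter beyond 1 read 3861 genes were high and 11575 low, since more genes of few reads entered. With the SD of log2 CPM set against its own trend 2158 were high, among them 1055 of the 1158, and 2095 low, a measure that keeps counting noise. At a ratio of 2 in place of 1.5, 442 were high and 4329 low. With each animal left out in turn, 1178 to 1246 genes were high and 7338 to 7957 low. The filter on a mean of 1 CPM also kept Ddx3y, with a ratio of 25.6.

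Class sums over all members moved by less than the SD between animals under both other scalings. Leaving out an animal can move a mean of 8 by only a part of that SD, so the SD is no yardstick there. The mean choroid plexus sum was 294 CPM with all animals and 182 CPM without control mouse 5. With members past the low-count filter alone, hormone genes summed to 5.60 CPM, neutrophil genes to 0 and enamel and muscle genes to 5.03 CPM. The count of relations past an adjusted p of 0.05 was 1 with a prior count of 0.5 and with DESeq2 size factors, 0 with the pairs of Ttr left out, and 0 to 2 with an animal left out. Slc17a7 and Chat passed without control mouse 8 (r = -0.95). No paired analysis was possible because the control mice form a single group and their numbers pair no animals. Precision is limited by 8 animals, of unstated sex, and by genes of few reads, whose spread is mostly counting error.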
